A study of Mus musculus with 4 samples.

Results

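The genes described here carry out cholesterol synthesis, move sterols inside the cell, store or export them, and set the activity of SREBP2, the transcription factor that drives sterol genes. They were taken from a list of 31 genes, and a probe was assigned to a gene when its transcript accession mapped to that gene. This gave 43 of the 39429 non-control probes on the array, at least 1 probe for every gene. Of the 31 genes, 30 passed the filter on dim probes, each being well above background on all 4 arrays, and they form part of the 17406 genes or other features tested. Soat1, an enzyme that esterifies cholesterol in many tissues, was not tested, because its probe cleared the background threshold on 0 arrays.

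Total RNA came from liver of 2 wild type mice and 2 mice that lack the Cyp3a gene cluster (Cyp3a-/-). This cluster encodes cytochrome P450 enzymes that oxidise drugs, steroids and bile acids. Each liver was labelled with Cy3 and put on its own 1-colour Agilent array, and the labels state that separate animals were used. No treatment, time point, sex, age, strain, diet or hour of collection is given in the sources used here, nor is the construction of the deletion allele. The study asks what losing the cluster does to liver transcripts. Values are log2 of the processed intensity relative to the 75th percentile of the same array, so 0 is that percentile. Levels are compared only within a probe, never between genes, and the sums over cell type markers are compared only between livers. Precision is limited by the number of arrays, 2 for each genotype.

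Cyp3a11, a main hepatic member of the deleted cluster, read 7.94 and 8.09 in the wild type livers and did not clear the background threshold on either Cyp3a-/- array. It was at least 7203.6-fold lower there (limma, adjusted p = 1.4e-05). The arrays detected 54.4% to 56.4% of their probes above background, and 0 spots were saturated. All 10 hepatocyte markers examined were well above background in every liver. The wild type arrays share slide 1, whereas the Cyp3a-/- arrays are on slides of their own, liver 1 on slide 2 and liver 2 on slide 3. Slide and genotype therefore cannot be told apart, and neither can the slide and the liver within the Cyp3a-/- pair. In whole liver, fewer cells of a type and less RNA per cell cannot be told apart either.

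Cholesterol is built from acetyl-CoA through mevalonate, isoprenoid units, squalene and lanosterol, and the liver is a main site of this work. When sterols in the endoplasmic reticulum run low, SCAP escorts SREBP2 to the Golgi, where proteases free its active part. That part then enters the nucleus and raises transcription of most of the synthesis genes. INSIG proteins hold SCAP and SREBP2 back when sterols are plentiful. INSIG1 is itself a target of SREBP2, while in liver a separate INSIG2 transcript is known to fall with insulin and to rise in fasting.

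Promoters of 4 members are shown as examples: Hmgcs1, Mvk and Insig1 differed by more than 2-fold between the Cyp3a-/- livers, and Insig2 did not. Mvd, Msmo1 and Dhcr7 also differed by more than 2-fold, and their promoters are not shown. No promoter entry was available for Sqle and Fdft1, which differed by 4.28-fold and 2.17-fold. Sequences are the 250 bases before the transcript start, from RefSeq on GRCm38.p6, read 5′ to 3′ on the gene's strand. Capitals mark 3 motifs that were searched on both strands. The first is an SRE-like motif, TCACNCCAC, related to the element that SREBP binds. The second is CCAAT, the box that NF-Y binds, which shows as ATTGG where it lies on the other strand. The third is GGGCGG, the GC box that Sp1 family factors bind, which shows as CCGCCC where it lies on the other strand. No base in the sequences shown belonged to more than 1 motif. Insig2 has 3 starts in the table, and the windows of the first and second are shown.
Hmgcs1, chr13:119690101-119690350, + strand: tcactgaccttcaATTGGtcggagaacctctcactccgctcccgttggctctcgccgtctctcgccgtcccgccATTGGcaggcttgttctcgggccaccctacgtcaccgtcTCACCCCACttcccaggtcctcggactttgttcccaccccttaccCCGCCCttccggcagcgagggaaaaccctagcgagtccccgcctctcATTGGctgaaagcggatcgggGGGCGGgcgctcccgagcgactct
Mvk, chr5:114444019-114444268, + strand: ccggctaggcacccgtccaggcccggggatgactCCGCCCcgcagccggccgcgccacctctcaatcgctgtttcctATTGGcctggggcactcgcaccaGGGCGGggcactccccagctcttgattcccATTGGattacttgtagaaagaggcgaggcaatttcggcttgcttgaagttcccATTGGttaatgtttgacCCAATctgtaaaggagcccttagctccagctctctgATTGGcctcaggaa
Insig1, chr5:28071162-28071411, + strand: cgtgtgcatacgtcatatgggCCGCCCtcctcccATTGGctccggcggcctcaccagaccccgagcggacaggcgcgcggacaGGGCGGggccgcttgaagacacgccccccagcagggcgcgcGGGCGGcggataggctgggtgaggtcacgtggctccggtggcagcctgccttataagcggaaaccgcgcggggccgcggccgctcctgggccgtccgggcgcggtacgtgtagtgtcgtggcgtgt
Insig2, first start, chr1:121332590-121332839, - strand: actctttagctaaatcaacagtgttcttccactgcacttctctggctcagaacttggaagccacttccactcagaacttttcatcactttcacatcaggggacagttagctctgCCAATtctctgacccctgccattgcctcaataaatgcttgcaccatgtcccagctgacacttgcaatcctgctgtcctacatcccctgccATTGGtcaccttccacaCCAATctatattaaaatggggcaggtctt
Insig2, second start, chr1:121328025-121328274, - strand: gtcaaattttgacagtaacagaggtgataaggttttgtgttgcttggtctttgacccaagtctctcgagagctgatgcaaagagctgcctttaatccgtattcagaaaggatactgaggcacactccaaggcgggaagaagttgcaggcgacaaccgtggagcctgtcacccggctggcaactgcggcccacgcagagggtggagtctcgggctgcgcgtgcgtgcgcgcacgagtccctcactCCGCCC

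The Hmgcs1 window held the SRE-like motif between 137 and 129 bases before the start, together with 3 CCAAT boxes and 2 GC boxes. The Mvk window held 5 CCAAT boxes and 2 GC boxes, and the Insig1 window 1 CCAAT box and 3 GC boxes. The first Insig2 window held 3 CCAAT boxes and no GC box, and the second held 1 GC box and no CCAAT box. The promoter table has entries for 25 of the 31 members. A CCAAT box lay in the window of 22 of these 25 (88%), against 37.5% of all 27025 genes in the table. A GC box lay in 21 of the 25 (84%), against 35.4% of all genes. The SRE-like motif lay in 1 of the 25 (4%), Hmgcs1, against 1.22% of all genes. A match of letters is a description and not a binding site, and a window without a match says only that these letters are not in it.

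Between genotypes, none of the 30 members passed the test: 0 rose and 0 fell (limma, Benjamini-Hochberg adjusted p under 0.05), against 0.276% of all features tested. At an unadjusted p under 0.05 the test picked out 1 member, Insig2, or 3.33%, against 10.0% of all features. The members' differences depended on the Cyp3a-/- liver: against the wild type mean, their median was -0.34 in Cyp3a-/- 1 and 0.29 in Cyp3a-/- 2. For Insig2 the same values were 0.81 and 0.78. The median log2 difference of the members, Cyp3a-/- minus wild type, was 0.01, equal to that of all features, and single members ranged from -0.30 for Hsd17b7 to 0.80 for Insig2. Genotypes were fully separated for 2 members, Insig2 and Npc1, both higher in Cyp3a-/- (6.67%, against 22.5% of all features), and for 0 members that were lower (20.2% of all features). The pattern within the genotypes was different. Of the 30 members, 27 read higher in Cyp3a-/- 2 than in Cyp3a-/- 1 (90.0%, against 55.1% of all features), and the median difference was 0.61 on the log2 scale, or 1.53-fold. The 20 synthesis enzymes were all higher in Cyp3a-/- 2, with a median difference of 0.74, or 1.67-fold. With 1 array per liver and each on its own slide, a difference between these livers has no replicate check and was not tested.

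**Figure D1:**
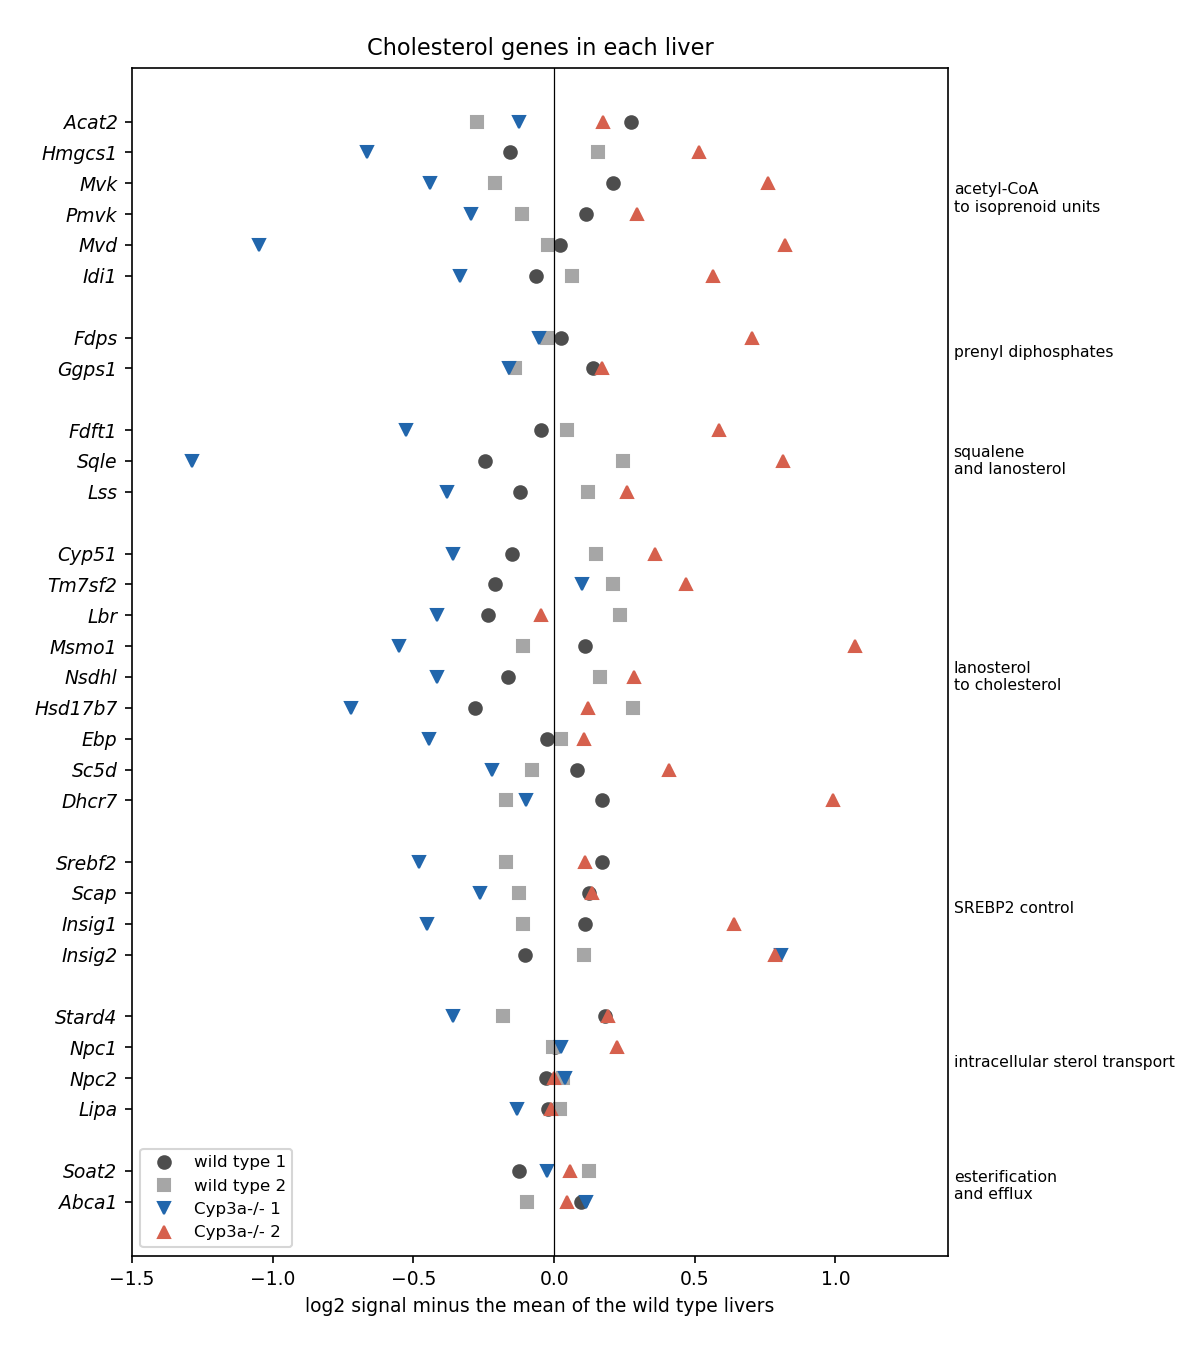
Each row is a member and the horizontal axis is its log2 signal in each of the 4 livers minus the mean of the wild type livers, with a symbol for each liver. Cyp3a-/- 1 lies left of Cyp3a-/- 2 in all 20 rows of synthesis enzymes, while in the row of Insig2 both Cyp3a-/- livers sit right of both wild type livers.

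Of the enzymes measured, 6 act between acetyl-CoA and the isoprenoid units. Acat2, the cytosolic thiolase that joins acetyl-CoA units, read 5.31 and 4.76 in the wild type livers and 4.91 and 5.21 in Cyp3a-/- 1 and 2. Its Cyp3a-/- values lay between the wild type ones. Hmgcs1, the cytosolic synthase that makes HMG-CoA, read 4.80 and 5.11 in wild type and 4.29 and 5.47 in Cyp3a-/-. Mvk, mevalonate kinase, read 3.0 and 2.58 in wild type and 2.35 and 3.55 in Cyp3a-/-. For both enzymes Cyp3a-/- 1 was the lowest liver and Cyp3a-/- 2 the highest, by 2.26-fold for Hmgcs1 and 2.30-fold for Mvk within the Cyp3a-/- pair. Pmvk, phosphomevalonate kinase, read 4.24 and 4.01 in wild type and 3.83 and 4.42 in Cyp3a-/-. Mvd, the decarboxylase that yields isopentenyl diphosphate, read -0.01 and -0.05 in wild type and -1.08 and 0.79 in Cyp3a-/-. Idi1, the isomerase that supplies dimethylallyl diphosphate, read 3.69 and 3.82 in wild type and 3.42 and 4.32 in Cyp3a-/-.

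Mvd had the widest spread of this stretch. Its processed intensity was 310.4 and 340.8 in the wild type livers, 148.6 in Cyp3a-/- 1 and 534.2 in Cyp3a-/- 2. The wild type livers were close together and the Cyp3a-/- livers lay on either side of them, 3.66-fold apart on the scaled signal, a difference that 0.563% of all features exceeded in either direction. The genotype difference of Mvd was -0.11 ± 0.59 (SE, n = 2 per genotype), with a 95% interval from -1.58 to 1.35 (limma, adjusted p = 0.961). Acat2, Hmgcs1, Pmvk and Idi1 had genotype differences of 0.02, -0.08, 0.00 and 0.12, and Mvk had 0.16 ± 0.42 (limma, adjusted p = 0.916). In 5 of these 6 enzymes, all but Acat2, Cyp3a-/- 1 was the lowest and Cyp3a-/- 2 the highest of the 4 livers.

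Prenyl diphosphates are the branch point between sterols and the non-sterol isoprenoids. Fdps, which makes farnesyl diphosphate, read 4.59 and 4.54 in wild type and 4.51 and 5.27 in Cyp3a-/-. Cyp3a-/- 1 was close to the wild type livers and Cyp3a-/- 2 stood above all of them. The genotype difference of Fdps was 0.33 ± 0.29 (limma, adjusted p = 0.731). Ggps1, which makes geranylgeranyl diphosphate for protein prenylation, read 0.09 and -0.19 in wild type and -0.21 and 0.12 in Cyp3a-/-, with a genotype difference of 0.01. Its 4 livers lay within a range that the wild type pair nearly spanned.

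Squalene and lanosterol come next, the first steps given over to sterols. Fdft1, squalene synthase, read 2.40 and 2.49 in wild type and 1.92 and 3.03 in Cyp3a-/-. Sqle, the epoxidase that adds oxygen to squalene, read 2.05 and 2.54 in wild type and 1.01 and 3.11 in Cyp3a-/-. Lss, the cyclase that closes the lanosterol rings, read -0.30 and -0.06 in wild type and -0.56 and 0.08 in Cyp3a-/-. In all 3 the wild type livers lay between the Cyp3a-/- livers. Sqle showed the widest gap of all 30 members. Its processed intensity was 1289.3 and 2053.6 in wild type, 632.9 in Cyp3a-/- 1 and 2660.3 in Cyp3a-/- 2. The Cyp3a-/- livers were 4.28-fold apart, and 0.299% of all features had a larger gap in either direction. Over the genotypes the Sqle difference was -0.23 ± 0.67, with an interval from -1.91 to 1.44 (limma, adjusted p = 0.923). Fdft1 and Lss had genotype differences of 0.03 and -0.06.

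The remaining 9 enzymes measured turn lanosterol into cholesterol. Cyp51, the demethylase that opens this stretch, read -0.35 and -0.05 in wild type and -0.56 and 0.16 in Cyp3a-/-. Tm7sf2 and Lbr both encode sterol C14 reductases. Tm7sf2 read 5.05 and 5.47 in wild type and 5.36 and 5.73 in Cyp3a-/-, with a genotype difference of 0.29 ± 0.24 (limma, adjusted p = 0.716). Lbr, which is also a receptor for lamin B at the nuclear envelope, read -0.67 and -0.20 in wild type and -0.85 and -0.48 in Cyp3a-/-. For both reductases the wild type livers differed by more than the Cyp3a-/- livers, 0.41 against 0.37 for Tm7sf2 and 0.47 against 0.37 for Lbr.

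Msmo1, Nsdhl and Hsd17b7 act together in removing the methyl groups at C4. Msmo1, the oxidase, read 4.69 and 4.47 in wild type and 4.03 and 5.65 in Cyp3a-/-. The Cyp3a-/- livers were 3.06-fold apart with both wild type livers between them, a gap that 1.06% of all features exceeded. Nsdhl, the decarboxylating dehydrogenase, read 0.43 and 0.76 in wild type and 0.18 and 0.88 in Cyp3a-/-. Hsd17b7, the keto reductase, read 0.54 and 1.10 in wild type and 0.10 and 0.94 in Cyp3a-/-. On this Hsd17b7 probe the highest liver was wild type 2, and the genotype difference was -0.30 ± 0.35 (limma, adjusted p = 0.798). A second kept Hsd17b7 probe read 0.49 and 0.68 in wild type and 0.42 and 1.04 in Cyp3a-/-. Its genotype difference was 0.14, so the probes disagree in sign and in the highest liver. Msmo1 and Nsdhl had genotype differences of 0.26 and -0.06.

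The last enzymes rearrange and reduce the sterol B ring. Ebp, the isomerase, read 6.92 and 6.97 in wild type and 6.50 and 7.05 in Cyp3a-/-. Sc5d, the C5 desaturase, read 5.31 and 5.15 in wild type and 5.01 and 5.64 in Cyp3a-/-. Dhcr7, the final reductase of one arm of the pathway, read 0.37 and 0.03 in wild type and 0.10 and 1.19 in Cyp3a-/-. For Ebp and Sc5d the wild type livers lay between the Cyp3a-/- livers. For Dhcr7, Cyp3a-/- 1 lay within the wild type range and Cyp3a-/- 2 above it. The Dhcr7 difference between genotypes, 0.45 ± 0.38, was the highest of the 20 synthesis enzymes and did not pass the test (limma, adjusted p = 0.724). Cyp51, Lbr, Ebp and Sc5d had genotype differences of 0.00, -0.23, -0.17 and 0.09.

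The gap within the Cyp3a-/- pair varied along the pathway. Its median was 1.04 on the log2 scale over the 6 enzymes up to the isoprenoid unit and 0.55 over the 2 prenyl diphosphate synthases. It was 1.12 over the 3 enzymes of squalene and lanosterol and 0.69 over the 9 that follow lanosterol. For the 4 SREBP2 control genes it was 0.50, for the 4 sterol transport genes 0.16 and for Soat2 and Abca1 together 0.01. All features had a median of 0.04, with quartiles at -0.23 and 0.26.

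**Figure D2:**
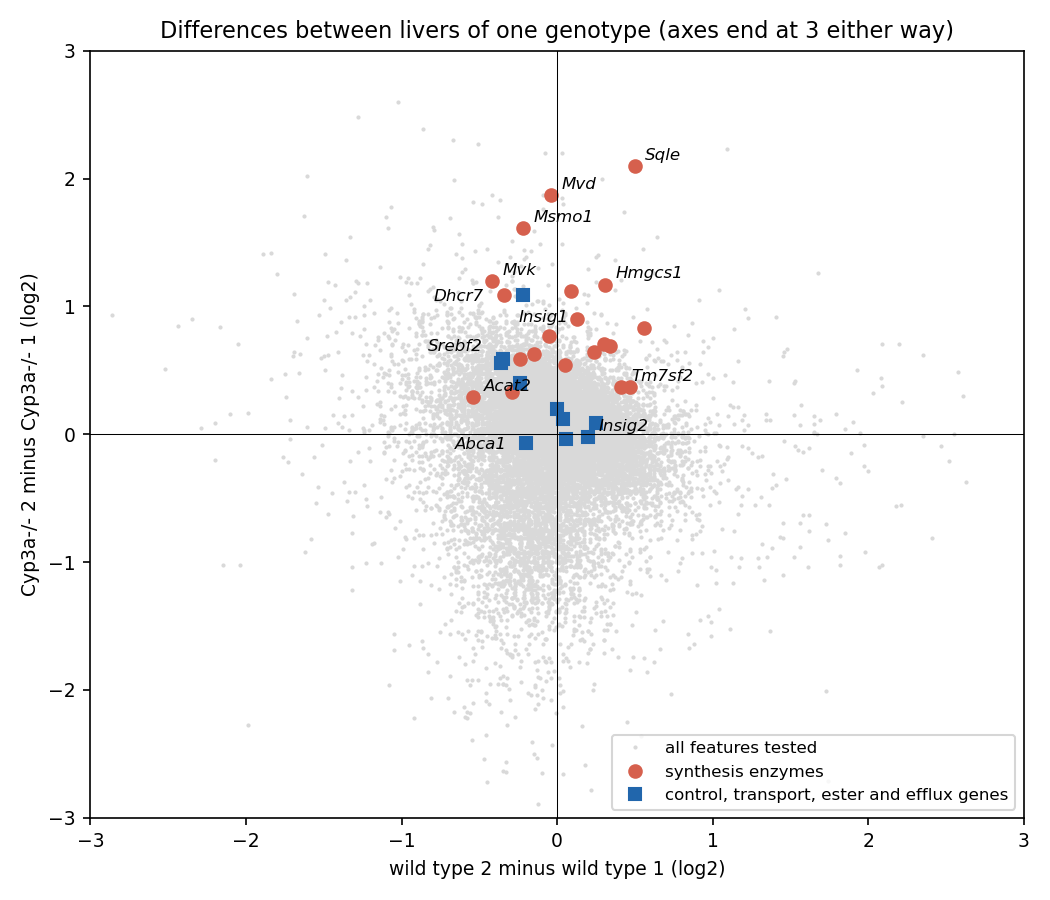
Each point is a feature, with the log2 difference of the wild type livers (2 minus 1) on the horizontal axis and that of the Cyp3a-/- livers (2 minus 1) on the vertical axis, in grey for all features and in colour for members. The axes end at 3 either way and leave out 12 features, none of them members, and all 20 synthesis enzymes lie above 0 on the vertical axis, from 0.29 to 2.10.

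The Cyp3a-/- 2 liver was at least 1.5-fold above Cyp3a-/- 1 for 17 of the 30 members (56.7%, against 5.27% of all features) and at least 2-fold for 8 (26.7%, against 0.868%). Those 8 were Sqle, Mvd, Msmo1, Mvk, Hmgcs1, Fdft1, Dhcr7 and Insig1. In the other direction, 0 of 30 members were at least 1.5-fold higher in Cyp3a-/- 1 (11.5% of all features) and 0 at least 2-fold (4.58%). Among all features the lean was thus the other way, with more of them at least 1.5-fold higher in Cyp3a-/- 1. Between the wild type livers 0 members differed by 1.5-fold in either direction, against 3.64% of features higher in wild type 2 and 6.18% higher in wild type 1. The median absolute difference of the members was 0.61 in the Cyp3a-/- pair and 0.24 in the wild type pair, against 0.25 and 0.20 over all features.

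Both wild type livers lay between the Cyp3a-/- livers for 18 of 30 members with Cyp3a-/- 1 lowest (60.0%, against 9.34% of all features). The reverse order, with Cyp3a-/- 2 lowest and Cyp3a-/- 1 highest, was seen in 0 members (7.33% of all features). Against the wild type mean, the median over the enzymes was -0.39 in Cyp3a-/- 1 and 0.44 in Cyp3a-/- 2. The near-zero genotype differences of most enzymes are therefore means of a lower and a higher liver. Tm7sf2 was above the wild type mean in both Cyp3a-/- livers (0.10 and 0.47), and Lbr was below it in both (-0.42 and -0.05). Intervals over the enzymes are wide, reaching from -1.91 at the lowest to 1.55 at the highest. A genotype difference of 2-fold is inside the interval for some of these enzymes, such as Sqle, Mvd, Msmo1, Mvk, Hmgcs1 and Dhcr7, and equality of the genotypes is not shown.

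The next 4 genes govern SREBP2 activity. Srebf2, which encodes SREBP2, read -1.24 and -1.58 in wild type and -1.89 and -1.30 in Cyp3a-/-, with a genotype difference of -0.18 ± 0.27 (limma, adjusted p = 0.846). Scap, the sterol sensor that escorts it, read 4.77 and 4.52 in wild type and 4.38 and 4.78 in Cyp3a-/-, with a genotype difference of -0.07. For Srebf2, Cyp3a-/- 1 was the lowest liver and Cyp3a-/- 2, 1.51-fold above it, lay within the wild type range. For Scap, Cyp3a-/- 1 was lowest and Cyp3a-/- 2 level with the higher wild type liver.

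The INSIG genes followed different patterns. Insig1 read 2.11 and 1.89 in wild type and 1.55 and 2.64 in Cyp3a-/-. It had the same order as most synthesis enzymes, with a 2.13-fold gap between the Cyp3a-/- livers and a genotype difference of 0.10 ± 0.38 (limma, adjusted p = 0.946). Insig2 read 4.59 and 4.80 in wild type and 5.50 and 5.48 in Cyp3a-/-, which are processed intensities of 7531.7 and 9781.9 against 14215.4 and 13739.5. Both Cyp3a-/- livers were higher than both wild type livers, and they lay 0.02 apart, the smallest gap of any member. The means were 4.69 ± 0.14 (SD, n = 2) and 5.49 ± 0.02 (SD, n = 2). The genotype difference was 0.80 ± 0.18, or 1.74-fold, with a 95% interval from 0.34 to 1.25. Its unadjusted p was 0.00552 and it did not pass after adjustment over all features (limma, adjusted p = 0.272). A second Insig2 probe, designed to another transcript accession, read 3.71 and 3.45 in wild type and 4.15 and 4.29 in Cyp3a-/-. On that probe too the genotypes did not overlap, with a difference of 0.64. The probes measure the same RNA extracts and are not replicates.

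**Figure D3:**
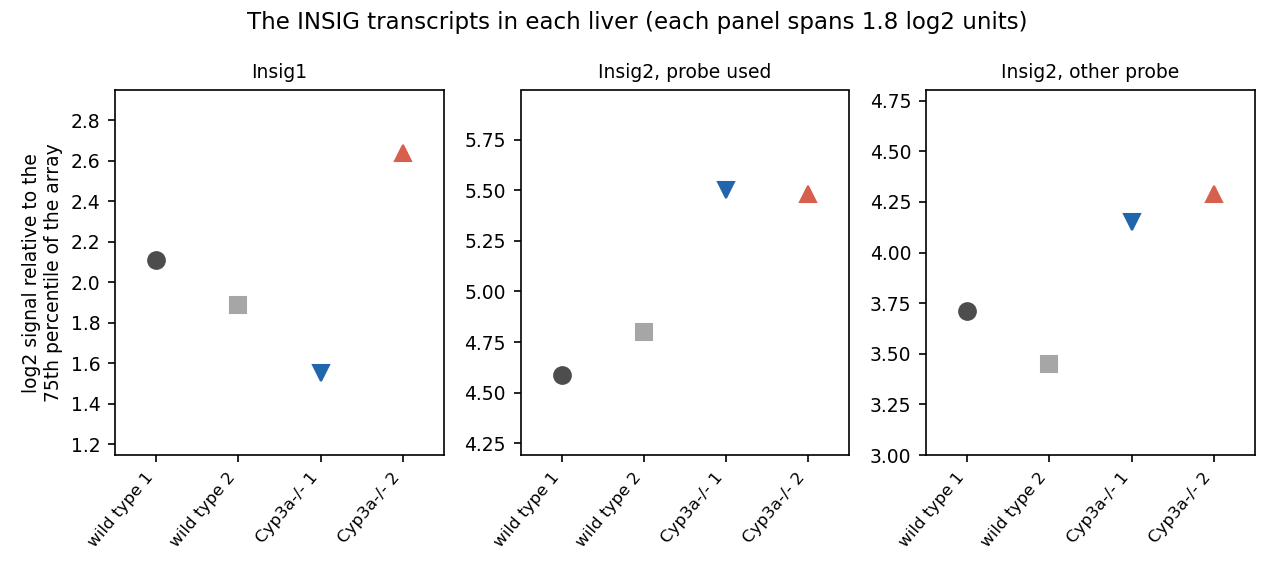
Signal (log2, 0 being the 75th percentile of an array) is plotted for Insig1 and for both Insig2 probes, with each liver as a point and the genotypes side by side. Insig1 has the wild type livers, at 2.11 and 1.89, between Cyp3a-/- livers at 1.55 and 2.64, whereas both Insig2 probes are higher in both Cyp3a-/- livers.

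Genes for moving sterols out of lysosomes and between membranes had a median gap of 0.16 between the Cyp3a-/- livers, against 0.74 for the synthesis enzymes, a difference that was not tested. Stard4, a soluble sterol carrier and a known SREBP2 target, read 2.67 and 2.31 in wild type and 2.13 and 2.68 in Cyp3a-/-. The gap between its Cyp3a-/- livers was 0.56 on this probe and -0.15 on a second one, so the probes disagree. Npc1, the lysosomal membrane protein that exports cholesterol, read 0.36 and 0.35 in wild type and 0.38 and 0.58 in Cyp3a-/-. Its genotypes did not overlap, but its difference was 0.12 ± 0.18 (limma, adjusted p = 0.844). Npc2, the soluble partner of Npc1, read 2.23 and 2.29 in wild type and 2.30 and 2.26 in Cyp3a-/-. Lipa, the lysosomal acid lipase that frees cholesterol from its esters, read 3.06 and 3.10 in wild type and 2.95 and 3.07 in Cyp3a-/-. The livers of neither gene separated by genotype, and the intervals of the difference ran from -0.41 to 0.45 for Npc2 and from -0.50 to 0.37 for Lipa.

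Esterification and efflux complete the set. Soat2, which makes cholesterol esters in hepatocytes, read 2.52 and 2.77 in wild type and 2.62 and 2.70 in Cyp3a-/-. Abca1, which loads cholesterol onto apolipoprotein A-I and is a target of the oxysterol receptor LXR, read 2.81 and 2.62 in wild type and 2.83 and 2.76 in Cyp3a-/-. For both genes the Cyp3a-/- livers were closer to each other than the wild type livers were. The genotype differences were 0.01 ± 0.19 for Soat2 and 0.08 ± 0.18 for Abca1 (limma, adjusted p = 0.987 and 0.901), with intervals from -0.45 to 0.48 and from -0.37 to 0.53.

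**Figure D4:**
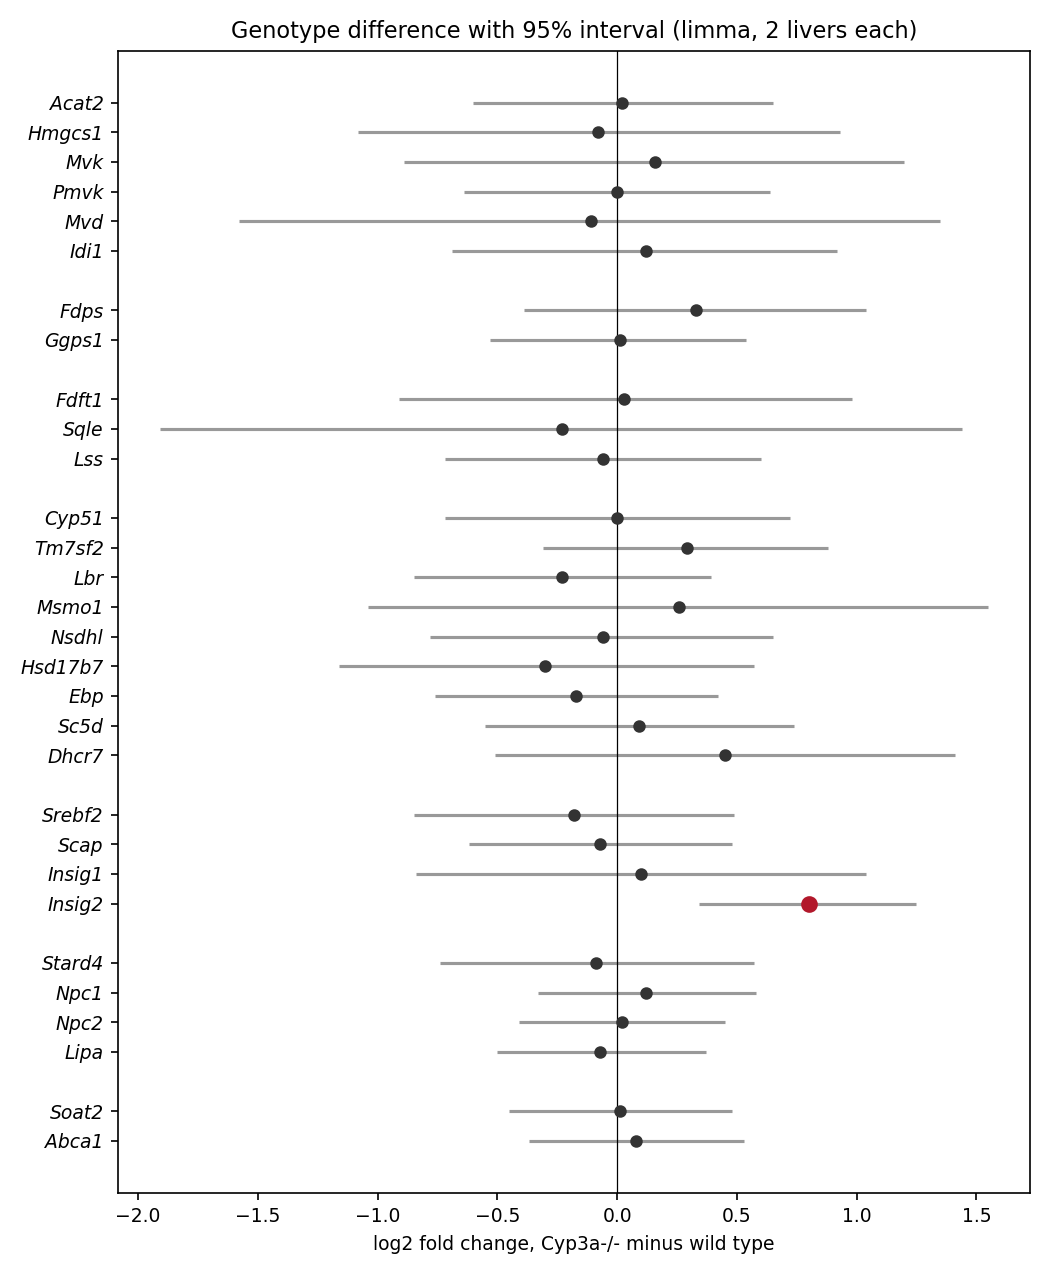
Points give the fitted log2 difference of each member, Cyp3a-/- minus wild type, and lines its 95% interval from limma (n = 2 per genotype). Insig2, in red, is the member whose interval, 0.34 to 1.25, leaves out 0, and the widest interval, that of Sqle, runs from -1.91 to 1.44.

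A second kept probe existed for 8 members and gave a further reading of the gap between the Cyp3a-/- livers. It was 1.51 for Mvk, 0.56 for Pmvk, 0.39 for Ggps1, 0.23 for Tm7sf2, 0.80 for Nsdhl and 0.62 for Hsd17b7. All of these have the sign of the probe with the higher signal. The second Insig2 probe gave 0.14, and that of Stard4, named above, was the one other whose sign differed from the first.

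Other genes known to respond to SREBP or to sense sterols were measured as a separate list, of which 31 of 32 were tested. None passed (0 rose, 0 fell), and their median genotype difference was -0.04. Their median gap between the Cyp3a-/- livers was 0.09, with 19 higher (61.3%, against 55.1% of all features) and 12 lower in Cyp3a-/- 2. At least 1.5-fold higher in Cyp3a-/- 2 were 4 of 31 (12.9%, against 5.27% of all features). The reverse held for 0 (11.5% of all features). Because the list pools SREBP-responsive with sterol-sensing genes, its median does not describe SREBP targets alone. Aacs, which activates acetoacetate for lipid synthesis, read 2.36 and 2.30 in wild type and 1.03 and 2.20 in Cyp3a-/-. Rdh11, a retinol dehydrogenase, read 2.00 and 1.94 in wild type and 1.10 and 2.04 in Cyp3a-/-. In both genes Cyp3a-/- 1 stood below the other 3 livers, and Cyp3a-/- 2 was near the wild type pair. The lowest p-values of the list belonged to Nceh1, a cholesterol ester hydrolase (-0.51), and Rnf139, an ubiquitin ligase with a sterol-sensing domain (0.40), at adjusted p = 0.564 and 0.589 by limma.

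The non-sterol isoprenoid branch was represented by 13 of 14 genes tested, and again 0 rose and 0 fell. The median genotype difference was 0.01 and the median gap between the Cyp3a-/- livers 0.07. Pdss1, which makes the side chain of ubiquinone, had a gap of 0.51. Icmt, which methylates prenylated proteins, had one of -0.60. Coq2, of ubiquinone synthesis, had the lowest p-value of the list, with a genotype difference of 0.31 (limma, adjusted p = 0.606).

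Fatty acid synthesis and other SREBP1 targets were tested as 12 of 12 genes, of which 0 rose, 0 fell and 4 had an unadjusted p under 0.05 (33.3%, against 10.0% of all features). Thrsp, a regulator of lipogenesis, read 4.24 and 3.42 in wild type and 4.83 and 6.28 in Cyp3a-/-. Fasn, fatty acid synthase, read 0.25 and 0.13 in wild type and -0.59 and 0.71 in Cyp3a-/-. Fasn had the order seen in most cholesterol enzymes, with the wild type livers between the Cyp3a-/- livers, while Thrsp was higher in both Cyp3a-/- livers. Elovl5, a fatty acid elongase, read 4.47 and 4.57 in wild type and 3.47 and 3.74 in Cyp3a-/-. Scd1, the stearoyl-CoA desaturase, read 6.72 and 7.10 in wild type and 6.16 and 6.08 in Cyp3a-/-. Both were lower in both Cyp3a-/- livers, by differences of -0.91 and -0.79 that did not pass adjustment (limma, adjusted p = 0.247 and 0.323).

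Bile acids are the main exit of cholesterol from the body, and 7 of 7 genes of this outlet were tested. None passed (0 rose, 0 fell), and 3 of 7 had an unadjusted p under 0.05 (42.9%, against 10.0% of all features). Cyp7a1, the rate-limiting enzyme of the classic route, read -0.82 and -0.46 in wild type and 0.14 and -0.05 in Cyp3a-/-. Nr0b2, the repressor also known as SHP, read 1.27 and 1.88 in wild type and 0.55 and 0.75 in Cyp3a-/-. The genotypes did not overlap for either gene, with differences of 0.68 and -0.92 (limma, adjusted p = 0.389 and 0.344). Cyp7b1 and Cyp27a1, of the alternative route, had the widest gaps of the list between the Cyp3a-/- livers, 0.23 and -0.20.

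**Figure D5:**
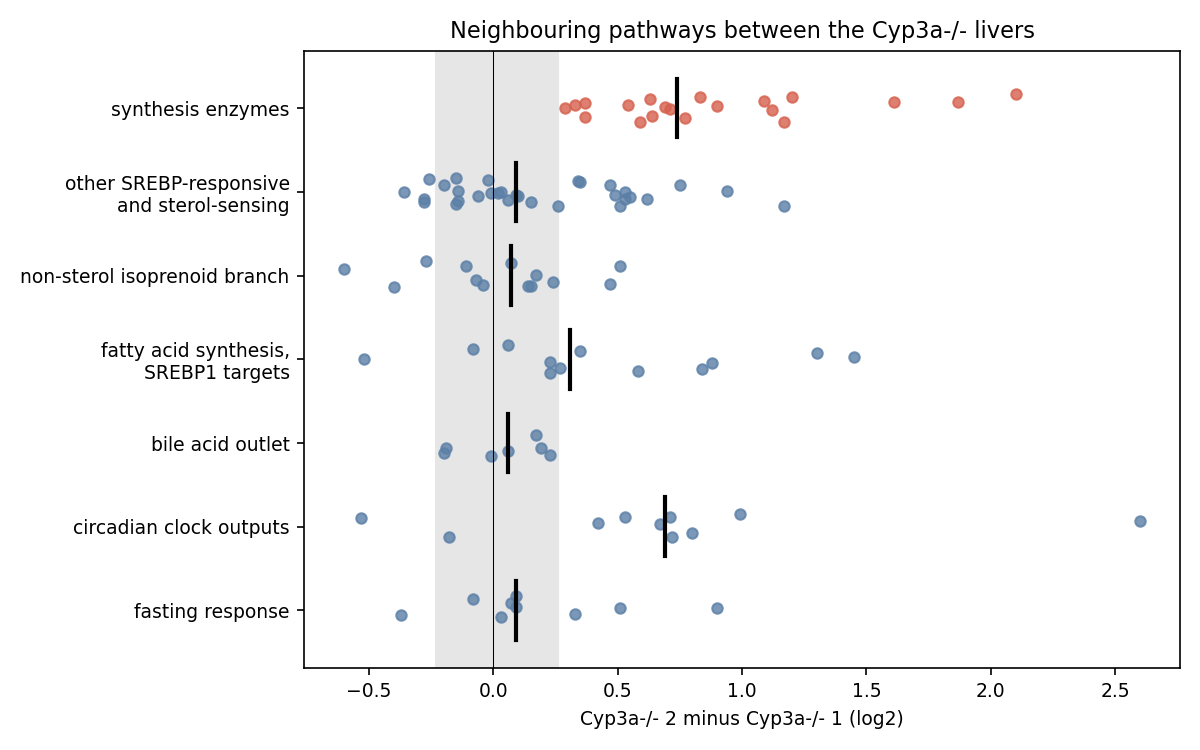
For the synthesis enzymes and for each neighbouring gene list, points show every gene's log2 difference between the Cyp3a-/- livers (2 minus 1) a bar marks the list's median, the vertical scatter within a list carries no value, and the grey band spans the quartiles of all features, -0.23 to 0.26. The medians are 0.74 for synthesis enzymes, 0.69 for clock outputs, 0.31 for fatty acid synthesis and between 0.06 and 0.09 for the other 4 lists.

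Genes that vary with time of day also differed between the Cyp3a-/- livers. Of 14 circadian clock genes and outputs 10 were tested, 8 of them higher in Cyp3a-/- 2 (80.0%, against 55.1% of all features), with a median gap of 0.69. Dbp, a clock output factor, read 1.72 and 0.70 in wild type and -0.10 and 2.50 in Cyp3a-/-. Per1, a core clock gene, read -1.19 and -1.07 in wild type and -0.93 and 0.07 in Cyp3a-/-. Nr1d1, the clock repressor REV-ERB alpha, read 0.74 and 0.35 in wild type and -0.65 and 0.06 in Cyp3a-/-. Dbp had its lowest value in Cyp3a-/- 1 and its highest in Cyp3a-/- 2, as most cholesterol enzymes did. That order was seen in 2 of 10 clock genes (20.0%, against 9.34% of all features). In size, the gap in the Cyp3a-/- pair was larger than in the wild type pair for 10 of 10 clock genes, against 56.6% of all features. Between genotypes 0 clock genes rose and 0 fell, and the lowest p-values were those of Nr1d1 and Per1 (limma, adjusted p = 0.453 and 0.584). The part of collection time in the cholesterol gene pattern was not tested.

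Of 9 fasting-response genes all 9 were tested, and 0 rose and 0 fell. Their median gap was 0.09 between the Cyp3a-/- livers and 0.52 between the wild type livers. Of the 9, 8 were higher in wild type 2, against 8168 of all 17406 features. In wild type 2, 4 of 9 were at least 1.5-fold higher (44.4%, against 3.64% of all features). Tat, an amino acid catabolic enzyme induced by glucocorticoids, had a gap of 0.90, and Ppargc1a, a coactivator of gluconeogenesis, one of 0.51. Fgf21, a fasting hormone of the liver, read -3.90 and -0.62 in wild type and did not clear the background threshold on either Cyp3a-/- array. It was at least 5.81-fold lower there on the probe's bound, but did not pass the test (limma, adjusted p = 0.253). That bound uses the wild type mean, and the wild type livers lay 3.28 apart on the log2 scale. Wild type 1 was dim, with a processed intensity of 20.9 against 228.7 in wild type 2. The bound therefore rests mainly on wild type 2. Cpt1a, of mitochondrial fatty acid uptake, had a genotype difference of -0.46 (limma, adjusted p = 0.551). The part of feeding in the cholesterol gene pattern was not tested.

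Summed levels of cell type markers, on the linear scale relative to the 75th percentile, were taken over the markers tested, and the brightest probes weigh most in each sum. The hepatocyte sum over 10 of 10 markers was 4140.8 and 3718.0 in wild type and 3676.2 and 4202.9 in Cyp3a-/-. The median marker gap between the Cyp3a-/- livers was 0.14, but single markers differed by more. Fgb, a fibrinogen chain named here after its values were seen, read 8.95 and 8.98 in wild type and 7.13 and 8.98 in Cyp3a-/-. Its Cyp3a-/- 1 value stood below the other 3 livers, 3.60-fold under Cyp3a-/- 2, a gap that 0.603% of all features exceeded. Tat, described above with a gap of 0.90, is on this list too. Macrophage markers, 8 of 8, summed to between 57.4 and 59.1 in wild type and between 46.7 and 51.5 in Cyp3a-/-. Sinusoidal endothelium markers, 7 of 7, gave 34.0 to 44.0 and 36.5 to 39.9. Stellate cell markers, 8 of 8, gave 43.2 and 39.2 in wild type and 36.0 and 38.9 in Cyp3a-/-. Of these 8, 7 were higher in Cyp3a-/- 2 than in Cyp3a-/- 1 (87.5%, against 55.1% of all features), with a median gap of 0.32, and 7 were lowest in Cyp3a-/- 1 (87.5%, against 32.5%). All 8 had a genotype difference below 0, against 8452 of all 17406 features, and none passed the test (limma, lowest adjusted p = 0.532). Erythroid markers, 4 of 5, were the most uneven, at 91.7 and 107.3 in wild type, 46.6 in Cyp3a-/- 1 and 75.1 in Cyp3a-/- 2. Cholangiocyte markers, 4 of 6, summed to at most 1.45 in any liver, lymphocyte markers, 5 of 8, to at most 4.08, and neutrophil markers, 3 of 6, to at most 2.29. Adipose markers, 2 of 5, stayed at or below 1.98, with Adipoq, Plin1 and Lep failing the filter on dim probes, and pancreas markers, 2 of 6, at or below 0.321. The part of cell makeup in the cholesterol gene pattern was not tested.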

How the data were processed

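Liver RNA of 2 wild type and 2 Cyp3a-/- mice was hybridised to 1-colour Agilent arrays, 1 array per liver, grouped by the labels' genotype. The authors deposited scanner files with intensity values from Agilent Feature Extraction (version 11.5.1.1, per the submitters' processing notes). Per the file headers, the processed intensity is background-subtracted and not scaled between arrays. Other deposited columns hold flags coded 0 or 1. A deposited value table of the authors holds log2 values. Its scale, centring and direction are not stated and were inferred: it correlated at 1.00 with scanner values scaled to the 75th percentile and centred per probe on the median. All 39417 of its probes had a median of 0 (tolerance 0.002), and its column medians were 0.06, -0.07, -0.02 and 0.02. No per-sample column was left unused (0).

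Signals are log2 processed intensity minus the 75th percentile over the 39429 non-control probes of each array, after leaving out control spots and 113 to 148 outlier spots per array. A probe was kept if both arrays of some genotype read it well above background (21508 probes). Accessions were matched to RefSeq genes of GRCm38.p6, which named 28025 probes and left 11404 without a symbol. The kept probe with the highest mean signal stood for a gene, giving 17406 features, 13094 of them named. The array design's build is not GRCm38.p6, and the table was used only for names and promoters.

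The genotype test was limma (version 3.58.1, R 4.3.3: lmFit, eBayes, 2-sided, Benjamini-Hochberg over all features, threshold 0.05), with 2 residual and 3.54 prior degrees of freedom. Intervals are at 95%. The procedure was also run on simulated data, with planted differences larger than that of any member. That run does not show its power for differences of the members' size. An "at least" fold sets the mean of the brighter genotype against, per array, the higher of the probe's own signal and the dimmest probe that the array read well above background. Alternatives covered background correction, scaling, filters, probe choice, the authors' table, blocks and leaving out each liver. All members are named; every synthesis step is given in each liver, and from each neighbouring list the 2 genes with the largest gap between the Cyp3a-/- livers and the 2 with the lowest p-values are named, except 1 gene that is not reported here. Members and lists were chosen with earlier results of these data known. Labels do not say whether replicate numbers pair the livers, and p-values measure the spread between these 4 livers.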

Additional observations from a re-analysis of the deposited data

How the results depend on the processing

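No member passed the adjusted threshold under any of the 14 alternatives (0 in each). All 20 synthesis enzymes were higher in Cyp3a-/- 2 under each alternative that changed the values, and the members' median gap between the Cyp3a-/- livers ran from 0.56 with normexp to 0.79 with scaling to the median, which itself moved the median gap of all features from 0.04 to 0.22. Insig2 kept a difference of 0.65 to 0.90, with adjusted p from 0.141 to 0.813 by limma. Features called, 48 in all, became 659 with scaling to the median, 13 without the filter on dim probes, 9 when all 4 arrays had to be well above background, and between 7 and 506 when a liver was left out: 8 without wild type 1, 7 without wild type 2, 94 without Cyp3a-/- 1 and 506 without Cyp3a-/- 2. The cause was not tested. The members' median genotype difference was 0.29 without Cyp3a-/- 1 and -0.34 without Cyp3a-/- 2, and within -0.05 and 0.05 under the other alternatives.

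Differences near 0 turned sign. With normexp Acat2 was -0.01 and Ggps1 -0.03. With quantile normalization Acat2 was -0.12, Fdft1 -0.01, Sc5d -0.05, Npc2 -0.02 and Soat2 -0.04. With the mean of a gene's probes Ggps1 was -0.10. Leaving out each liver in turn reversed the sign of 23 members whose difference over all livers was not 0.00, with these ranges: Acat2 -0.25 to 0.30, Hmgcs1 -0.66 to 0.51, Mvk -0.44 to 0.76, Mvd -1.05 to 0.82, Idi1 -0.34 to 0.57, Fdps -0.06 to 0.71, Ggps1 -0.16 to 0.17, Fdft1 -0.52 to 0.59, Sqle -1.28 to 0.82, Lss -0.38 to 0.26, Msmo1 -0.55 to 1.06, Nsdhl -0.41 to 0.28, Hsd17b7 -0.71 to 0.12, Ebp -0.44 to 0.10, Sc5d -0.22 to 0.41, Dhcr7 -0.10 to 0.99, Srebf2 -0.48 to 0.11, Scap -0.27 to 0.13, Insig1 -0.45 to 0.65, Stard4 -0.37 to 0.19, Npc2 -0.01 to 0.05, Soat2 -0.11 to 0.14 and Abca1 -0.02 to 0.18. Pmvk and Cyp51, at 0.00 over all livers, crossed 0 as well, from -0.30 to 0.30 and from -0.35 to 0.36. There, the lone liver of a genotype is assumed to vary like the others.

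With the replicate block 58 features were called, and the members called stayed at 0. Deviations of same-numbered livers correlated at -0.10 in both pairs, and the labels do not pair them. A random slide block chosen after seeing the data, with a correlation of 0.34 estimated from the pair variances, called 33. The planned slide block by duplicateCorrelation was not run, since 4 arrays leave too few degrees of freedom. Signal over background limits Soat1.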

Other observations

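Dim second probes of 4 members, left out by the filter, gave these differences between the Cyp3a-/- livers (2 minus 1, log2): 1.78 for Hmgcs1, 1.20 for Fdft1, 0.65 for Lbr and -0.65 for Srebf2. The first 3 have the sign of the brighter probe of the same gene, and the last has the opposite sign. The dim Soat1 probe read -4.46 and -4.80 in wild type and -5.29 and -4.56 in Cyp3a-/-.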
